A study of Mus musculus with 9 samples.

Results

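Epithelial cells hold together through adherens junctions and tight junctions, and the genes described here, Cdh1, Epcam, Cldn3, Cldn4, Cldn7, Ocln, Tjp1, Marveld2 and F11r, encode 9 of their proteins. They are 9 of the 19938 genes measured. They were chosen by name, with the measured differences between these lines already known, and each gene is represented by its only probe set with a single gene symbol. The probe sets are 10575052 for Cdh1, 10447383 for Epcam, 10526241 for Cldn3, 10534395 for Cldn4, 10377673 for Cldn7, 10411668 for Ocln, 10564343 for Tjp1, 10411680 for Marveld2 and 10351623 for F11r. Their levels and differences are therefore given as a description. They were part of the fit over all genes, and the calls it made for them are counted beside the share of all genes called, not used as a test.

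In an adherens junction, E-cadherin, the product of Cdh1, binds E-cadherin of the next cell and is tied to actin inside the cell by catenins. Tight junctions lie nearer the free surface, where claudins and occludin form strands that seal the space between cells, tricellulin seals the corners at which several cells meet, and ZO-1 links the strands to actin. Loss of E-cadherin, Epcam and claudins is well known from carcinoma cells that give up epithelial character.

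RNA was measured on 9 whole-transcript mouse arrays, 3 for each of 3 lines. 4T1 is a mouse mammary carcinoma line, kept untreated. MR20 cells are 4T1 cells that survived methotrexate, a folate antagonist, at 20 µg/ml in the labels (the unit is ng in the paper's results text) for up to 2 weeks, and that then grew for 2 weeks without drug. DR500 cells are 4T1 cells that survived doxorubicin, an anthracycline, raised to 500 ng/ml; the labels give up to 2 weeks, and the methods text describes a longer stepwise selection and a drug-free recovery after it. Parts of the DR500 labels give methotrexate as the drug, but that of the treatment protocol is used here. Each selected line came from surviving cells of 1 parental line. The labels call the arrays of 4T1 and MR20 biological replicates, and those of DR500 samples, with RNA from triplicate wells. Nothing in them says that the replicates were separate selections, so a p-value here reflects the spread of those samples, which may be technical. The labels give the 4T1 controls as grown beside MR20 and name no batch for DR500, so a batch of the DR500 arrays and the line cannot be told apart. Values are log2 expression after robust multi-array normalization, and levels are not compared between genes, because probes differ in brightness. The root mean square deviation from the line's mean was 0.15 for DR500 replicate 1 and 0.08 to 0.12 for the other arrays.

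The labelled cell type was checked against marker genes. Krt8, a keratin of simple epithelia, averaged 13.41 in 4T1, 13.60 in MR20 and 13.43 in DR500. Of 7 epithelial markers, 1 was higher and 4 were lower in DR500 than in 4T1 at an adjusted p under 0.05 (limma). In MR20, 5 of the 7 were higher, with Krt14 higher by 2.24. In DR500, Krt7 fell by 5.67 and Krt14 fell by 2.58 on the log2 scale, whereas Muc1, an epithelial mucin, rose by 2.50. The mean of the list ran from 10.08 to 10.15 over the 4T1 arrays and from 8.88 to 8.97 over the DR500 arrays. Of 8 fibroblast markers 2 were higher in DR500, Pdgfra by 1.70 and Dcn by 0.56, with list means of 6.11 to 6.22 in 4T1 and 6.49 to 6.61 in DR500. Of 7 leukocyte markers, Cd68 and Cd14 were higher in both selected lines, with list means of 6.29 to 6.31 in 4T1, 6.59 to 6.66 in MR20 and 6.70 to 6.79 in DR500. Ptprc, which all leukocytes carry, averaged 5.17, 5.18 and 5.24 in 4T1, MR20 and DR500. The mean of 6 endothelial markers lay between 5.02 and 5.22 on all arrays. The part of other cell types in the results was not tested.

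Promoter windows of the genes were read from RefSeq (GRCm38.p6), because several genes moved together in DR500. A window is the 250 bases before a gene's start, and 8 of the 9 genes had 1 or more. The gene without a window was Cdh1, so its promoter was not searched. The letters CACCTG or CAGGTG, the E-box that Snail and Zeb factors are known to bind, were searched on both strands and are printed in capitals. Cldn4, Epcam and Cldn3 are shown as genes that were far lower in DR500, and F11r as one that was not, each 5′ to 3′ along the gene. The Cldn4 window is chr5:134946935-134947184 (minus strand), that of Epcam chr17:87635729-87635978 (plus), that of Cldn3 chr5:134985964-134986213 (plus) and that of F11r chr1:171437311-171437560 (plus).
Cldn4: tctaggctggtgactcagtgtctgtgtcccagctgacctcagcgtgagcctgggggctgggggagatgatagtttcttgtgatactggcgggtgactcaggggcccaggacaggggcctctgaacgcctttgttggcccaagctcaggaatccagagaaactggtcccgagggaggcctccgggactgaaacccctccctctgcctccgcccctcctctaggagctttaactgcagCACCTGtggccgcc
Epcam: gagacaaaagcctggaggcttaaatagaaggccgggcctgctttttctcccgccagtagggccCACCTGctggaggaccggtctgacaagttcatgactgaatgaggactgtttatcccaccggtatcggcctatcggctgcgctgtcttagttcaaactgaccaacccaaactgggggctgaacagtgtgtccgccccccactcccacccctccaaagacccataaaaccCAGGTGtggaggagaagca
Cldn3: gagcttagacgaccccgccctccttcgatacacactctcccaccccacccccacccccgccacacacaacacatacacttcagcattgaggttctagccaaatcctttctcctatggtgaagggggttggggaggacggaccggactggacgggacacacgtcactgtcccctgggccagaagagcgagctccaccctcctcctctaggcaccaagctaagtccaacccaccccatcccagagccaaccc
F11r: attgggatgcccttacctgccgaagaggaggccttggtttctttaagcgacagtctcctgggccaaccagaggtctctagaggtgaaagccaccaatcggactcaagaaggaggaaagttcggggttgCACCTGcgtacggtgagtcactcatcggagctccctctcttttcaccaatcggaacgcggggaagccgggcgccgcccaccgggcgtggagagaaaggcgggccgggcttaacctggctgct

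In these letters the Cldn4 E-box began 14 bases before the start, those of Epcam 19 and 187 bases and that of F11r 122 bases before it, and Cldn3 had none. Across windows, 5 of 8 genes held at least 1 E-box (Epcam, Cldn4, Cldn7, Ocln and F11r, the Cldn7 and Ocln boxes in a second window), and 5 of their 11 windows did. Over all promoters 17.2% of windows and 19.4% of genes held it. The letters AACCGGTT, which grainyhead-like factors such as Grhl2 are known to bind, were in 0 of the 11 windows and in 0.116% of all windows. A run of letters this rare would seldom be met in 11 windows, so nothing is read from its absence. The box was present in Epcam, Cldn4, Cldn7 and Ocln, which were lower in DR500, and in F11r, which was not. It was absent from Cldn3 and Marveld2, which were also lower, and from Tjp1, which was not. Whether it goes with the fall was not tested, and a match is a run of letters, not a site shown to be bound.

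Cdh1, Epcam, Cldn3, Cldn4 and Cldn7 were much lower in DR500 than in 4T1, with log2 differences between -5.84 and -3.78. In RNA from whole cultures, fewer cells with a transcript and less of it per cell cannot be told apart. Cdh1 read 11.10, 11.03 and 11.02 on the 4T1 arrays, 10.95, 10.91 and 10.95 on the MR20 arrays and 7.04, 7.34 and 7.23 on the DR500 arrays. DR500 lay below both other lines without overlap, by 3.84 ± 0.08 (SE, n = 3) against 4T1, a 14.4-fold difference. Epcam, the adhesion molecule that marks most simple epithelia and stabilises claudins, read 10.98, 11.02 and 11.02 in 4T1, 10.78, 10.85 and 10.89 in MR20 and 6.91, 6.75 and 6.81 in DR500. It was 18.2-fold lower in DR500 than in 4T1 (log2 difference -4.19, SE 0.06).

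The claudins are the strand-forming proteins, and Cldn4 and Cldn3 had the largest differences of the 9 genes. Cldn4 read 12.41, 12.37 and 12.37 in 4T1, 11.92, 12.11 and 11.97 in MR20 and 7.00, 6.37 and 6.27 in DR500. It stood 57.2-fold lower in DR500 than in 4T1 (log2 difference -5.84, 95% interval -6.19 to -5.49) and was, in order of size, number 3 of all falls. Cldn3 read 11.61, 11.53 and 11.66 in 4T1, 11.10 on every MR20 array and 7.51, 7.33 and 7.00 in DR500, which was 20.0-fold below 4T1 (log2 difference -4.32, SE 0.11).

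The 3 MR20 values of Cldn3 were identical in the deposited table, so their SD was 0. Such ties occurred across the table: 37 genes were identical on the 3 MR20 arrays, 42 on the 3 of 4T1 and 17 on the 3 of DR500, and between 9 and 60 genes were identical on 3 arrays drawn from more than 1 line. Any pair of arrays of 1 line shared the same value in 98 to 345 genes and a pair of different lines in 83 to 293. The cause was not tested. The SE of Cldn3 pools the 3 lines, so the tie lowers it, and its MR20 difference of -0.50 is to be read with that.

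Cldn7 read 10.31, 10.21 and 10.38 in 4T1, 10.31, 10.25 and 10.17 in MR20 and 6.82, 6.61 and 6.13 in DR500, with MR20 inside the range of 4T1. Its 13.8-fold fall in DR500 (log2 difference -3.78, SE 0.14) was near that of Cdh1, with intervals of -4.10 to -3.46 and -4.01 to -3.68. The means of Cldn4, Cldn7 and Marveld2 in DR500 were 6.55, 6.52 and 6.39, near the medians of all probe sets on those arrays (6.24 to 6.36) and under the limit of 6.74 that the filter on dim genes sets on a gene's highest value. The deposited values do not show whether a probe set was above background, so the folds of these genes may understate the change. The spread was widest in DR500 for these genes, with an SD of 0.40 for Cldn4 and 0.35 for Cldn7 against 0.02 and 0.09 in 4T1.

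**Figure D1:**
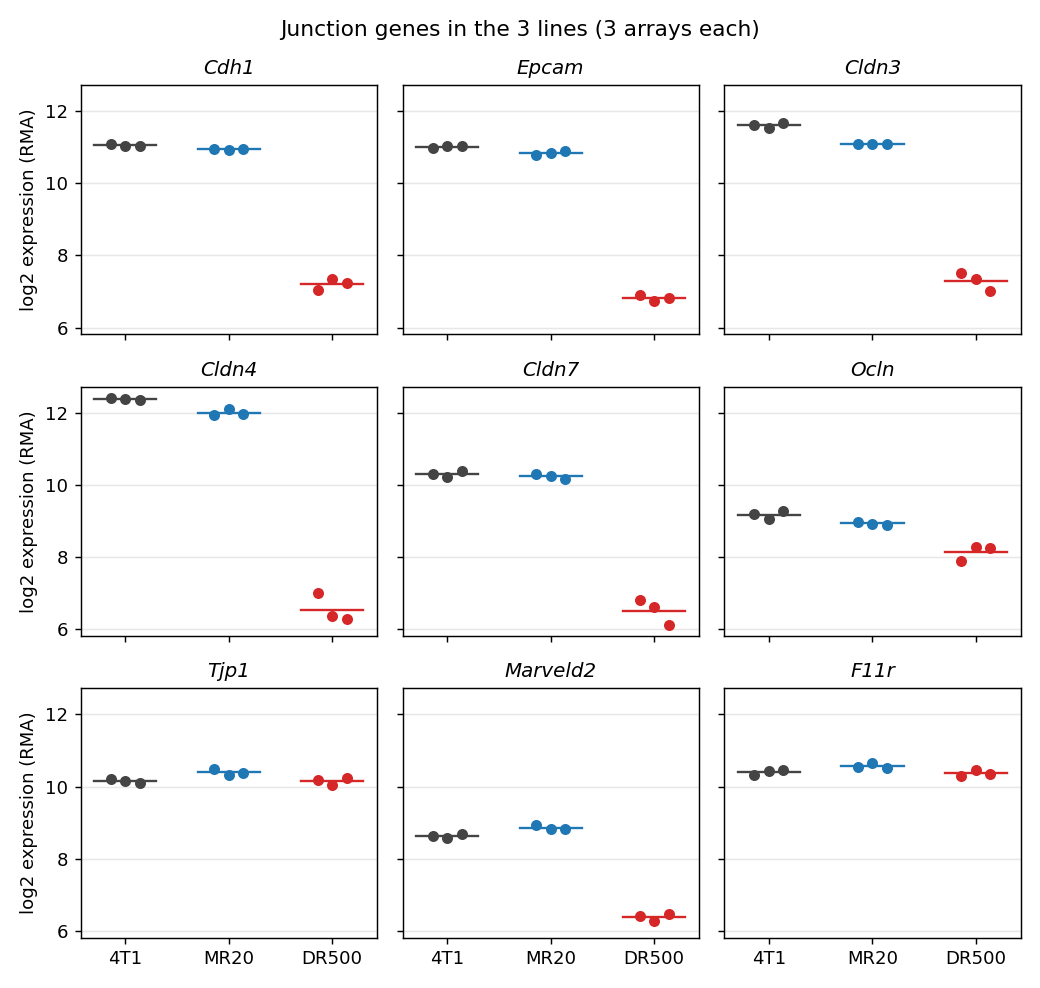
Log2 expression of the 9 junction genes on each of the 9 arrays, in 1 panel per gene with the lines 4T1, MR20 and DR500 on the horizontal axis, points for arrays and horizontal lines for line means. Cdh1, Epcam and the 3 claudins fall from above 10 in 4T1 and MR20 to below 8 in DR500, whereas Tjp1 and F11r stay between 10 and 11 in all 3 lines.

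Marveld2 encodes tricellulin, and its difference in DR500 was smaller. It read 8.63, 8.57 and 8.69 in 4T1, 8.92, 8.81 and 8.81 in MR20 and 6.42, 6.28 and 6.46 in DR500. MR20 lay above 4T1 by 0.22 and DR500 below it by 2.24 (SE 0.07 each), so the lines stood on opposite sides of 4T1 without overlap. Ocln, the occludin gene, read 9.20, 9.06 and 9.27 in 4T1, 8.97, 8.93 and 8.90 in MR20 and 7.90, 8.27 and 8.25 in DR500. Its difference of -1.04 (SE 0.10) was just past 2-fold in DR500, and it lay between -1.10 and -0.92 over the other ways of processing. It was under 2-fold without 4T1 replicate 3 or DR500 replicate 1, and with either other scaling.

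Tjp1, which encodes the scaffold ZO-1, and F11r, the adhesion molecule JAM-A, did not follow. Tjp1 read 10.22, 10.14 and 10.09 in 4T1, 10.50, 10.32 and 10.39 in MR20 and 10.19, 10.04 and 10.24 in DR500. Its DR500 values overlapped those of 4T1, with a difference of 0.00 and a 95% interval of -0.16 to 0.17. F11r read 10.33, 10.42 and 10.47 in 4T1, 10.55, 10.64 and 10.52 in MR20 and 10.29, 10.47 and 10.36 in DR500, again with overlap between DR500 and 4T1 (difference -0.03, interval -0.18 to 0.12). MR20 was the highest line for both genes, by 0.25 for Tjp1 and 0.17 for F11r against 4T1.

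In order of the difference between DR500 and 4T1, Cldn4 stood first, then Cldn3, Epcam, Cdh1, Cldn7, Marveld2, Ocln, F11r and Tjp1. The 95% intervals of Cldn3 and Epcam overlapped, as did those of Cdh1 and Cldn7, and of F11r and Tjp1. Those of the other adjacent pairs in this order did not overlap, but the interval of Cldn7 also overlapped those of Cldn3 and Epcam. The intervals cover the spread between arrays only. The order is one of measured differences, since Cldn4, Cldn7 and Marveld2 were dim in DR500 and differences may be limited there.

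Of the genes, 7 were called lower in DR500 than in 4T1 (adjusted p under 0.05 and over 2-fold; limma), 0 were called higher and 2 did not pass. Over all 19938 genes 3.09% were called lower and 2.47% higher in that comparison, but the genes were chosen with these values known and nothing is read from the count. Their median difference was -3.78, against 0.07 for all genes. The 7 also did not overlap between lines, which held for 24.4% of all genes in the lower direction. Against MR20, DR500 had 6 of the 9 called lower (3.23% of all genes lower, 2.87% higher), all 9 lower without overlap (23.4% of all genes), and a median of -3.73 against 0.07 for all genes. This comparison and the others share arrays, so they are not independent. Ocln, Tjp1 and F11r were lower in DR500 than in MR20 by 0.79, 0.25 and 0.20, each under 2-fold.

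In MR20 relative to 4T1, 0 of the 9 were called in either direction, where 1.41% of all genes were called higher and 1.08% lower. The differences ran from -0.50 for Cldn3 to 0.25 for Tjp1, with a median of -0.11 against -0.01 for all genes. Cldn4 differed by -0.38, Ocln by -0.24, Epcam by -0.17, Cdh1 by -0.11 and Cldn7 by -0.06. The arrays did not overlap in 8 genes, 3 higher (21.4% of all genes were) and 5 lower (23.8%), Cldn7 being the one that overlapped.

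**Figure D2:**
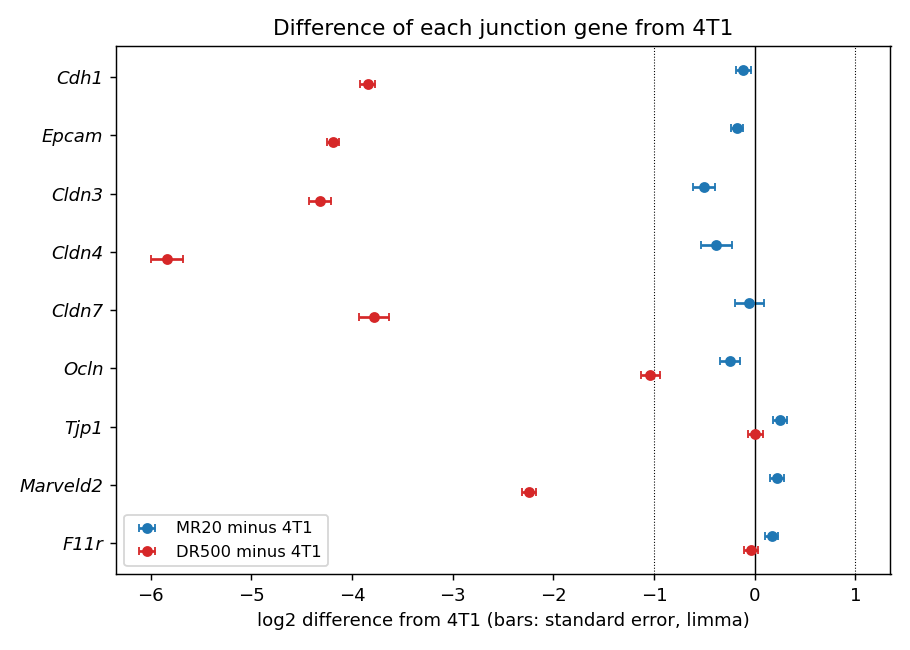
Log2 difference of each of the 9 junction genes, from 4T1, blue for MR20 and red for DR500, with bars for the standard error from limma and dotted lines at 2-fold. The MR20 points lie between -0.50 and 0.25, whereas in DR500 Cldn4 lies at -5.84, Ocln at -1.04 beside the dotted line and Tjp1 and F11r at 0.00 and -0.03.

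Related junction genes were described from 8 lists of 124 genes, of which 119 were measured. The share of all genes that passed the test (adjusted p under 0.05, limma) was 15.4% higher and 17.1% lower in MR20, and 20.2% higher and 21.3% lower in DR500, each against 4T1. Of the 119, 20 were higher and 24 lower in MR20, and 30 higher and 32 lower in DR500. With DR500 against MR20, 29 were higher and 34 lower, where 21.2% and 20.6% of all genes were. The split in DR500 depends on scaling: 4034 genes were higher and 4239 lower over the whole table, 6096 and 3773 after a repeated quantile normalization and 5886 and 3601 with each array centred on its median, which moved the median of all genes by 0.05 and 0.06. In MR20 the same settings turned 3064 higher and 3409 lower into 3414 and 3317, and 3247 and 2737. For DR500 against MR20 they turned 4234 and 4114 into 5823 and 3810, and 4905 and 3802.

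Scaffold and polarity proteins, which sit under the tight junction beside ZO-1, were lower in DR500 in 11 of 22 measured genes and higher in 3 (6 after a repeated quantile normalization). The median of the list was -0.21, against 0.07 for all genes. Pard6b, a partner of atypical protein kinase C in the Par complex, read 9.39, 9.32 and 9.47 in 4T1, 9.38, 9.29 and 9.31 in MR20 and 7.07, 7.24 and 7.25 in DR500, so it fell by 2.21 (SE 0.07, adjusted p = 3.57e-09, limma). Patj, a Crumbs complex scaffold, fell by 1.22, cingulin (Cgn) by 1.19, Amot by 1.02 and the kinase gene Prkci by 1.01. In MR20 this list had 3 genes higher and 5 lower (3 lower with centred arrays). Pard6g, another Par6 gene, rose there by 1.71 (adjusted p = 1.38e-06, limma), reading 5.43, 5.57 and 5.47 in 4T1 and 7.35, 7.16 and 7.10 in MR20. Amot rose by 0.74 in MR20, and Prkci and Pard3 fell by 0.52 and 0.50.

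Among the other claudins, of 20 measured, 3 were higher and 3 lower in DR500 and 2 were higher and 3 lower in MR20. The 2 became 1 without 4T1 replicate 2, 4T1 replicate 3 or MR20 replicate 3. Cldn9 read 8.27, 8.32 and 8.53 in 4T1, 6.11, 6.08 and 6.50 in MR20 and 7.28, 7.22 and 7.15 in DR500, so it fell by 2.15 in MR20 and by 1.16 in DR500 (adjusted p = 4.47e-07 and 1.47e-05, limma). Its MR20 mean of 6.23 lay under the medians of all probe sets on those arrays, so the MR20 fall may be understated. Cldn6 fell by 0.68 and 1.02. Cldn1 rose in MR20 by 0.76 from a dim 4T1 level of 5.28 (adjusted p = 0.000189, limma). Cldn12 fell by 1.02 in MR20, and its DR500 difference of 0.12 did not pass (adjusted p = 0.124, limma). DR500 and MR20 differed in Cldn12 by 1.14 (adjusted p = 8.68e-08, limma). Among the claudins that rose in DR500, Cldn13 did so by 0.61 from a 4T1 level of 4.48 and Cldn18 by 0.48 from 5.57. With the filter on dim genes, 0 claudins were left higher in either selected line.

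Other tight junction membrane proteins had 2 of 11 genes higher and 3 lower in DR500. Marveld3, a relative of occludin and tricellulin, read 7.99, 7.86 and 8.01 in 4T1, 7.07, 6.96 and 7.00 in MR20 and 6.39, 6.13 and 6.22 in DR500. It fell by 0.94 in MR20 and 1.71 in DR500 (adjusted p = 1.02e-05 and 5.97e-08, limma). Its DR500 mean of 6.25 lay near the array medians, so this fall may be understated, as for Marveld2. Cldn6, Amot and Cgn, named above, were also dim in DR500, with means of 6.43, 6.56 and 6.63. Whether these genes were above background there is not known from these values. Lsr, the angulin that recruits tricellulin, rose by 0.41 in MR20 and fell by 0.44 in DR500. The count of genes higher in DR500 was 5 without DR500 replicate 3, 4 after a repeated quantile normalization, 6 when arrays were centred and 1 with the filter on dim genes.

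Catenins and plaque proteins of the adherens junction, the partners of E-cadherin, moved both ways. In DR500, 6 of 19 were higher and 6 lower, with a median of 0.04. Ctnnd1, p120-catenin, rose by 0.77 in MR20 and by 0.60 in DR500 (adjusted p = 5.38e-06 and 1.36e-05, limma), and Jup, plakoglobin, rose by 0.77 and 0.29. Lima1 rose by 1.07 in DR500, and Ajuba and Vezt fell by 1.14 and 1.08. Ctnnb1, beta-catenin, differed by 0.29 and Ctnna1, alpha-catenin, by 0.03 from 4T1 in DR500, and both were picked after their values were seen. Nectins had 2 of 5 genes higher in MR20, Nectin2 by 0.79 and Nectin3 by 0.47, and 2 higher in DR500, which became 1 without 4T1 replicate 1, 4T1 replicate 2, DR500 replicate 2 or DR500 replicate 3.

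Of the other classical cadherins, 2 of 17 were higher and 2 lower in DR500, and 2 were lower in MR20. Cdh3, P-cadherin, which lies beside Cdh1 in the genome, fell by 0.74 in MR20 and by 0.89 in DR500 (adjusted p = 0.000104 and 1.61e-05, limma). Its means of 6.26 in MR20 and 6.11 in DR500 lay under the medians of all probe sets on those arrays, so both falls may be understated. Cdh2, N-cadherin, picked after its values were seen, averaged 4.66 in 4T1, 4.60 in MR20 and 4.80 in DR500 and did not pass in DR500 (difference 0.14, adjusted p = 0.185, limma). The count of cadherins higher in DR500 ran from 1 to 8 over the alternatives, and was 8 after a repeated quantile normalization, 5 without DR500 replicate 3 and 1 without 4T1 replicate 3, DR500 replicate 1 or DR500 replicate 2, among others. The count lower was 1 without 4T1 replicate 1, 4T1 replicate 2, DR500 replicate 2 or DR500 replicate 3.

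Genes that process or control Epcam and E-cadherin, proteases and their inhibitors among them, were higher in DR500 in 9 of 13 measured and lower in 3. The count higher ran from 6 to 9 over the alternatives. St14, the protease matriptase that cleaves Epcam, fell furthest, at 11.15, 11.17 and 11.11 in 4T1, 10.98, 11.04 and 10.98 in MR20 and 9.05, 9.09 and 9.01 in DR500, and fell by 2.09 (adjusted p = 9.36e-10, limma). Its inhibitor gene Spint1 rose by 0.61. The sheddase genes Adam17 and Adam15 rose by 0.52 and 0.47, and Psen2 of gamma-secretase fell by 0.73. In MR20, 3 of the list were higher and 4 lower, the latter 7 with the filter on dim genes or with trended robust moderation. Adam15 fell by 0.65 there.

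Transcription factors known to act on junction gene promoters had 3 of 12 higher and 4 lower in DR500. Grhl2, an activator of Cdh1 and claudin genes, read 8.83, 8.73 and 8.83 in 4T1, 9.04, 9.10 and 9.01 in MR20 and 5.71, 5.41 and 5.71 in DR500, so it fell by 3.19 (adjusted p = 1.25e-09, limma). Its DR500 values lay below the median of every array, and whether they were above background is not known from these values. Zeb2 and Snai1, repressors of Cdh1, rose. Zeb2 read 8.12, 8.01 and 8.13 in 4T1, 7.91, 7.64 and 7.71 in MR20 and 9.56, 9.47 and 9.70 in DR500, a rise of 1.49 (adjusted p = 3.1e-07, limma). Snai1 read 9.13, 9.15 and 9.10 in 4T1, 9.52, 9.45 and 9.52 in MR20 and 10.56, 10.38 and 10.45 in DR500, a rise of 1.34 (adjusted p = 5.49e-08, limma). Twist1 rose by 0.42 in MR20 and by 0.47 in DR500. Zeb1, another repressor, picked after its values were seen, differed by -0.50 in DR500, the opposite direction to Zeb2. In MR20 the list had 3 higher and 4 lower, the latter being 2 without 4T1 replicate 1, 4T1 replicate 2 or 4T1 replicate 3 and 1 without MR20 replicate 2 or with the filter on dim genes.

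**Figure D3:**
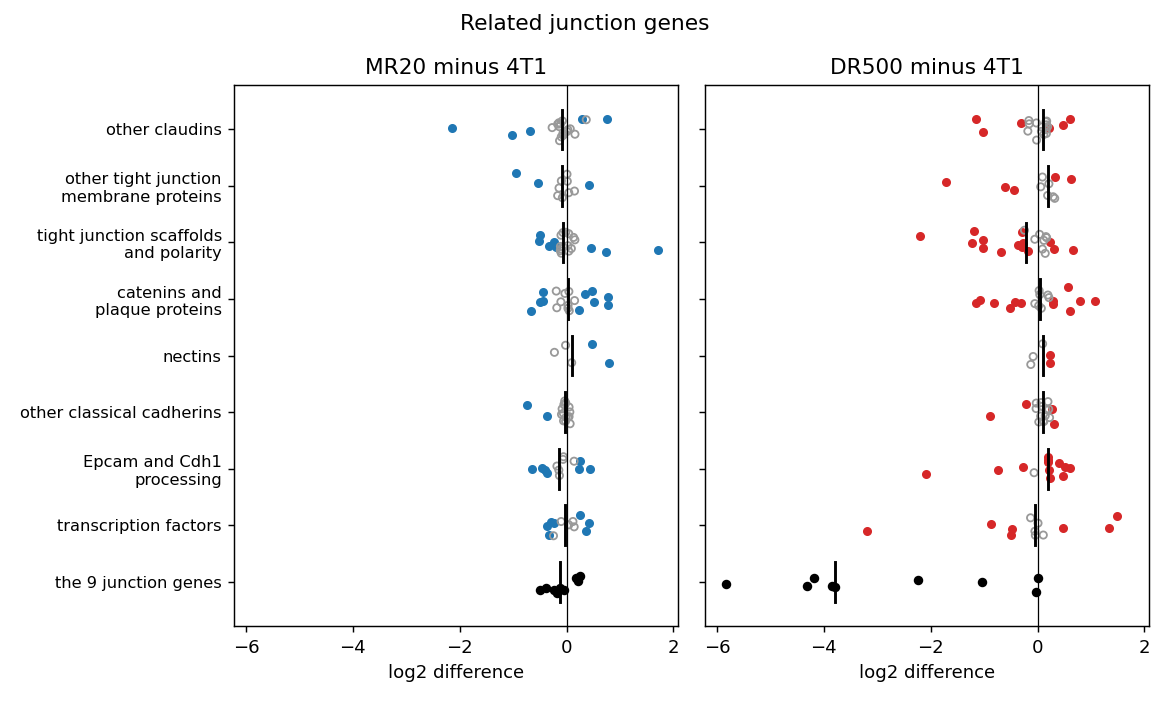
Log2 difference of each measured related junction gene by list, in MR20 and in DR500 against 4T1, with filled points for genes that passed the test, open points for the others, vertical bars for list medians and the 9 junction genes in black. Grhl2 at -3.19, Pard6b at -2.21 and St14 at -2.09 lie lowest among the related genes in DR500, and Zeb2 and Snai1 highest.

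Genes that lie beside the 9 in the genome were examined because position had no part in the choice. By RefSeq gene order, 42 genes are among the 3 nearest measured protein-coding genes on either side. Of these, 7 were higher (11 without DR500 replicate 3 or with either other scaling, 4 with the filter on dim genes) and 13 lower in DR500 than in 4T1, with differences between -1.18 and 1.41 and a median of -0.03, whereas the 9 genes had a median of -3.78. Called were 3: Naip2 and Naip6, near Ocln and Marveld2, by 1.41 and 1.36 (near-identical family copies, so their values are uncertain), and Pcsk6, near Tjp1, by -1.18. Pcsk6 was under the threshold for a call without DR500 replicate 2. Over all genes 20.2% passed higher and 21.3% lower in DR500, with 2.47% called higher and 3.09% lower. In MR20, 6 neighbours were higher and 10 lower and Smpd3, near Cdh1, was called at 1.03, a call lost without 4T1 replicate 2, 4T1 replicate 3 or MR20 replicate 1. The shares of all genes there were 15.4% and 17.1%, with 1.41% called higher and 1.08% lower. Cldn3 and Cldn4 share neighbours, as do Ocln and Marveld2, so these are not separate regions.

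**Figure D4:**
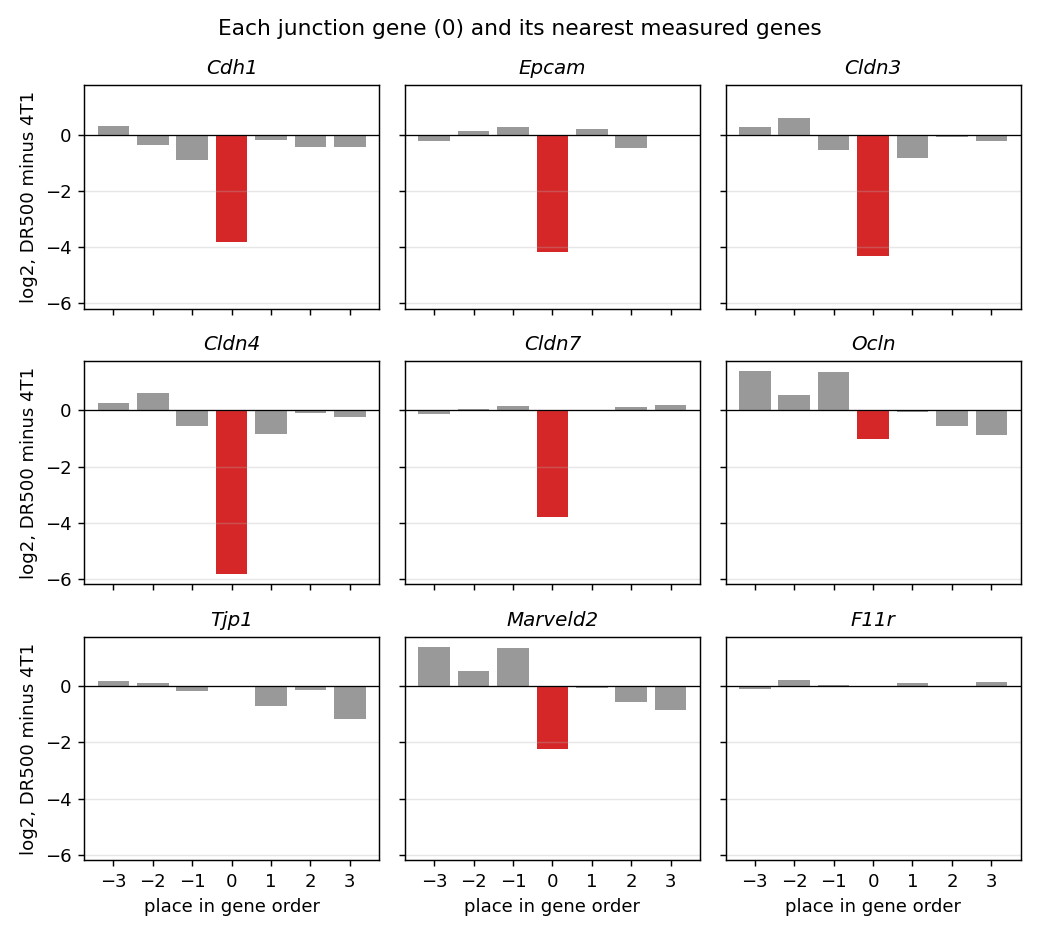
Log2 difference between DR500 and 4T1 of each of the 9 junction genes and of its 3 nearest measured genes on either side, as bars placed by gene order. The junction gene is red at place 0, whether called or not, and its neighbours are grey. All neighbours stay between -1.18 and 1.41, while Cdh1, Epcam, Cldn3, Cldn4 and Cldn7 lie at -3.78 or lower.

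The genes whose pattern over the 9 arrays was nearest to each of these were found by Euclidean distance after subtracting each gene's 4T1 mean. The nearest genes are a description, because the distances use the same values that were known when the 9 were chosen. For Cldn4 they were Esrp1, an epithelial splicing factor, Krt7 and Tmem54, at distances of 1.01, 1.19 and 1.34. For Epcam they were Lad1, Mpzl2 and Fam111a, at 0.52, 0.53 and 0.62, and for Cldn3 Kcnk1, Mpzl2 and Lcp1, at 0.41, 0.70 and 0.85. Cdh1 and Cldn7 had the same nearest genes, Tnnt2, Fam111a and Tmc4. Marveld2 was nearest to Dsp, the desmoplakin gene of desmosomes, at 0.35, then Morc4 and Shpk, and Ocln to Purg, Rprd1a and Ccnc, at 0.11, 0.17 and 0.18. Tjp1 was nearest to Vezf1, Mlxip and Coro2a and F11r to Lcmt1, Psmd4 and Psmb2. Among the 9 genes themselves the shortest distance was 0.41, between Tjp1 and F11r, and the next 0.67, between Cdh1 and Cldn7.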

How the data were processed

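RNA of 3 samples each of 4T1, MR20 and DR500 was hybridized to 1-colour Affymetrix mouse whole-transcript arrays. The authors made the deposited log2 values with robust multi-array normalization (affy), which corrects background, normalizes quantiles and summarises probes. Versions are not given in the sources used here. Quantile normalization gives the arrays it is run on a common probe distribution, which can hide a shift shared by most genes. Whether all 9 arrays were run together is not given in the sources used here. The median over 35556 probe sets was 6.24 to 6.38 on each array. The number of arrays limits the precision.

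Of these probe sets, 21789 have 1 gene symbol, of which 21698 were named by Entrez identifier, 1621 have several and 12146 none listed. The brightest stood for 999 genes with several, leaving 19938. Differences with their SEs and p-values were computed with limma, version 3.58.1, under R 4.3.3 (data.table, version 1.17.8), with 1 mean per line over all 9 arrays, empirical Bayes moderation and Benjamini-Hochberg adjustment over all genes. Called means an adjusted p under 0.05 and over 2-fold. Simulated data with known changes served to test the fit. Alternatives were a fit of 2 lines only, a filter on dim genes, repeated quantile normalization, median centring, the mean of a gene's probe sets, trended robust moderation, a replicate block and leaving out each array. Replicate numbers were not taken to pair arrays of different lines in the main fit. Deviations of same-numbered arrays correlated between -0.31 and 0.33, but differently numbered arrays were not compared, so pairing was not tested.

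The genes, lists and neighbours were chosen with earlier results of these data known. Of each list, up to 4 genes with the largest difference that passed were eligible to be named in each selected line, along with called neighbours and the 3 genes nearest each member; genes whose call was lost in an alternative were left to the closing section where possible. Promoter windows came from RefSeq tables.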

Additional observations from a re-analysis of the deposited data

Results flagged for a closer look

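Marveld2 stood above 4T1 in MR20 and below it in DR500, with a difference between the selected lines of -2.46. The value is a description, since the gene was chosen with its values known. The fit over all genes called Marveld2 lower in DR500 than in MR20, and whether the opposite directions from 4T1 differ was not tested apart from that. For the related genes taken by the naming rule, the difference between the selected lines was tested directly (DR500 against MR20, limma), which is the difference of their effects against shared 4T1 arrays. DR500 was lower than MR20 in Grhl2 (-3.44), Pard6b (-2.14), Pard6g (-2.01), St14 (-1.95), Amot (-1.76) and Patj (-1.31). It was also lower in Cldn1 (-1.08), Cgn (-1.07), Vezt (-0.90), Lsr (-0.85), Marveld3 (-0.77) and Ovol1 (-0.62). Smaller differences in the same direction were those of Nectin2 (-0.56), Prkci (-0.50), Jup (-0.49), Ajuba (-0.48), Limd1 (-0.47) and Nectin3 (-0.38). The smallest of them were those of Cldn6 (-0.34), Psen2 (-0.33), Ssx2ip (-0.31), Cbll1 (-0.23) and Ctnnd1 (-0.17). DR500 was higher than MR20 in Pard3 (0.20), Bace1 (0.20), Cdh10 (0.28), Cdh4 (0.28) and Cldn18 (0.54). It was also higher in Adam17 (0.59), Lima1 (0.59), Jam2 (0.71), Snai1 (0.97) and Spint1 (0.98). The largest of these were those of Cldn9 (0.99), Adam15 (1.11), Cldn12 (1.14) and Zeb2 (1.82). Values are log2 differences, each past an adjusted p of 0.05. Those of Bace1, Cdh4, Ctnnd1 and Pard3 did not pass in 2 or more of the alternatives. The genes were picked for their difference from 4T1 in one of the lines, so they are not a fair sample of all genes.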

How the results depend on the processing

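No called or passed result changed direction under any of the 16 alternatives. In DR500 against 4T1, Tjp1 (-0.04 to 0.06) and F11r (-0.08 to 0.02), which did not pass, crossed 0. Of 432 recomputed summary values, 416 stayed within 1.5 times the count or within the spread between replicates. The median difference of the 9 genes moved to -3.59 against 4T1 and to -3.53 against MR20 without DR500 replicate 3, and ran from -3.83 and from -3.77 with 1 array left out. The genes called lower in DR500 against 4T1 numbered 6 instead of 7 after a repeated quantile normalization, with centred arrays, without 4T1 replicate 3 and without DR500 replicate 1, since Ocln fell under 2-fold.

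Neighbours that passed higher in DR500 against 4T1 numbered 4 with the filter on dim genes, 11 after a repeated quantile normalization and 11 with centred arrays, and between 5 and 11 when 1 array was left out, with 11 without DR500 replicate 3. Neighbours called higher fell to 1 with the filter, in DR500 against 4T1 and against MR20, and to 1 against MR20 without DR500 replicate 3. Neighbours passing higher against MR20 numbered 4 with the filter. Neighbours called lower in DR500 numbered 0 without DR500 replicate 2 (Pcsk6) and 1 otherwise, and those called higher in MR20 numbered 0 or 1 (Smpd3). Related genes higher in DR500 against MR20 numbered 47 after a repeated quantile normalization. The filter kept 11288 genes, with all 9 junction genes, 77 related genes and 32 neighbours.

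With the replicate number as a block, 7 of the 9 genes were again called lower in DR500 against 4T1 and 28 related genes were higher and 31 lower. The block left 0 of the 9 called in MR20. Single related genes gave 132 results, of which 23 changed their side of the threshold in 1 or more alternatives. Among these are Grhl2 and Zeb2 in MR20, Cdh4, Cdh24, Cldn1, Nectin1, Nectin2 and Pard6g in DR500, and Grhl3 and Crb3 in MR20. The causes were not tested.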
